A study of Mus musculus with 8 samples.

Results

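Mouse chromosome 11 carries 83 protein-coding olfactory receptor genes, and their replication timing was read in mouse embryonic stem cells with and without auxin-induced degradation of CTCF. The 83 members are the RefSeq protein-coding genes of this chromosome whose symbol is Olfr followed by a number, out of 21078 protein-coding genes with a timing value, of which 1021 more are olfactory receptors on other chromosomes. Members with less than 1 Mb between them were joined, which gave 6 clusters of 19, 5, 2, 24, 30 and 3 genes, numbered here in order along the chromosome. The set was chosen by the auxin minus control score of these genes, which was positive in the fifth cluster, near 74 Mb, so every auxin value of the members below is a description and carries no test of its own.

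Olfactory receptors are G protein-coupled receptors of olfactory sensory neurons, each of which expresses 1 allele of 1 receptor gene. The genes lie in tandem clusters, and in other cell types such clusters are silent, rich in repeats and poor in CpG islands. Replication timing is the order in which DNA is copied in S phase: gene-rich, active chromatin is usually copied early and silent clusters late. CTCF, a DNA-binding protein with zinc fingers, occupies insulators and stops cohesin at the anchors of chromatin loops.

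The cells were E14Tg2a embryonic stem cells (129/Ola background, karyotype XY), and in both groups CTCF carried an auxin-inducible degron. The auxin group received 500 µM of the auxin indole-3-acetic acid over 2 days, and the control group received none. Newly made DNA was labelled with BrdU for 2 hours, and that of cells sorted from early S phase and from late S phase was sequenced apart. The 8 libraries make 4 profiles, 2 per group, each of which joins an early and a late library. Untagged cells given auxin are not among the groups, so CTCF loss and auxin itself cannot be told apart. Neither CTCF nor gene expression was measured in these files, so the degradation of CTCF and the identity of the cells were not checked, and the labels do not say whether replicates were separate cultures. SDs below are over the 2 profiles of a group, and a p-value covers no more than the spread among these 4 profiles.

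The timing score has no stated log base. Higher is earlier: in the authors' list of regions that went from early to late, scores are lower with auxin. Over all windows the score had an SD of 2.1, and the sorted scores of the 4 profiles were identical, so a shift of the whole genome cannot be seen. Correlations over all windows were 0.98 between the control profiles, 0.984 between the auxin profiles, and 0.968 to 0.969 between groups. The median auxin minus control difference was -0.00049 over all genes and 0.099 over the 1519 other genes of chromosome 11. No read counts were used here, so the depth behind each score is unknown.

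The members are short, with a median length of 954 bp, against windows of 6 kb. All 83 had a value: 80 overlapped a window, 65 of them exactly 1, and 3 took the nearest window, at most 2444 bp away. In all, 101 distinct windows stand behind the 83 values. Differences between replicates correlated at 0.977 from one window to the next, at 0.6 over 30 kb and at 0.181 over 60 kb. Neighbouring receptors are therefore not independent readings.

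Sequence was looked up because silent receptor promoters differ in makeup from most promoters. RefSeq models (GRCm38.p6) gave the 250 bases before the start for 72 of the 83 members. Of these models, 47 (65.3%) begin at the ATG and so hold only coding sequence, against 8.9% of all 17274 protein-coding genes with a sequence. The following stretches are the last 150 bases before the start of 6 fifth-cluster genes whose models begin before the ATG, out of 9 such models. Olfr20, Olfr1 and Olfr378 are shown for the homeodomain core TAATTA, in capitals, Olfr389 and Olfr392 for a stretch that they share, and Olfr43 for the largest auxin difference. Olfr20 lies on the plus strand (chr11:73350709-73350858) and the others on the minus strand (chr11:73399496-73399645, chr11:73428478-73428627, chr11:73780590-73780739, chr11:73816878-73817027 and chr11:74207290-74207439).
Olfr20: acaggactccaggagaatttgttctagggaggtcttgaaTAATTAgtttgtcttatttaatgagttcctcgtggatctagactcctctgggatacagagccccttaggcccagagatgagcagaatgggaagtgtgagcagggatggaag
Olfr1: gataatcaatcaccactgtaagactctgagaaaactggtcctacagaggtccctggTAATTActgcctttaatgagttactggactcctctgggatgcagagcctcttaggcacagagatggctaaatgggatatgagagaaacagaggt
Olfr378: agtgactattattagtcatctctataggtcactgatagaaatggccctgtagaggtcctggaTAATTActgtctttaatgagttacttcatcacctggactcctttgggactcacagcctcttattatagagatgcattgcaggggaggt
Olfr389: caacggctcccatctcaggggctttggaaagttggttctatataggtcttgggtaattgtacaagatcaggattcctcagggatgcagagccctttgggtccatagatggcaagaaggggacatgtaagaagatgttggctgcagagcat
Olfr392: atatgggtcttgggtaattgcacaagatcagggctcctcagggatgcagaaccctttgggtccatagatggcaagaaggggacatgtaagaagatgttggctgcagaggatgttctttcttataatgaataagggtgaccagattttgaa
Olfr43: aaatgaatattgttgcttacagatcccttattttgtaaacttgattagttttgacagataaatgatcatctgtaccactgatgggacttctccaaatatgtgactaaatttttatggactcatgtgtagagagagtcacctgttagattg

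Olfr389 and Olfr392, which have Olfr390 and Olfr391 between them, share an identical run of 57 bases. The other pairs shared less: 15 bases for Olfr1 and Olfr378, 14 for Olfr20 and Olfr1, and a median of 8 over the 36 pairs of the 9 models. Near-identical stretches like that of Olfr389 and Olfr392 can make short reads hard to place, and whether this affected their scores was not tested. The upstream stretches were poor in CpG: the median was 1 per 250 bases over the chromosome 11 receptors and 0 over the 26 fifth-cluster genes with a sequence, against 1 over 868 other receptors and 10 over all genes. Median GC content was 39.0% over the chromosome 11 receptors, 32.0% over the fifth cluster, 33.6% over other receptors and 55.6% over all genes. Among models that begin before the ATG it was 41.2%, 35.2% and 56.8% for chromosome 11 receptors, other receptors and all genes. In the fifth cluster 17 of the 26 models begin at the ATG, so its 32.0% mixes both kinds of model.

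Motifs were searched on both strands of the 250 bases, and a match is only a match of letters. TAATTA, a core bound by LIM-homeodomain proteins such as Lhx2, was in 14 of 72 members (19.4%) and in 6 of 26 in the fifth cluster (23.1%), against 18.1% of other receptors and 4.4% of all genes. Among models that begin before the ATG the shares were 16.0%, 18.3% and 3.6% for chromosome 11 receptors, other receptors and all genes. TATAAA, the core of the TATA box, was in 20 (27.8%), and in 38.5% of the fifth cluster, against 40.4% of other receptors and 12.5% of all genes.

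In control cells the 6 clusters ranged from late to early replication. The fifth cluster was the latest, with a mean member score of -1.89 ± 0.0034 (SD, n = 2), a percentile of 12.4 among all genes. The fourth stood at -0.11 ± 0.033, the first at 0.33 ± 0.033 and the second at 0.65 ± 0.28, at percentiles of 27.1, 31.1 and 34.2. The third and sixth, which hold 2 and 3 genes, replicated early at 3.39 ± 0.28 and 3.08 ± 0.27, at percentiles of 87.7 and 75.5. Cluster 1 and cluster 2 differed by little more than the SD of the latter, cluster 4 was below both in each control profile, and cluster 3 and cluster 6 overlapped. Of the 83 members, 41 (49.4%) had a control score below -0.5, against 832 of 1021 other receptors (81.5%) and 23.8% of all genes. Their median control score was -0.48, against -2.15 for other receptors and 1.89 for all genes.

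**Figure D1:**
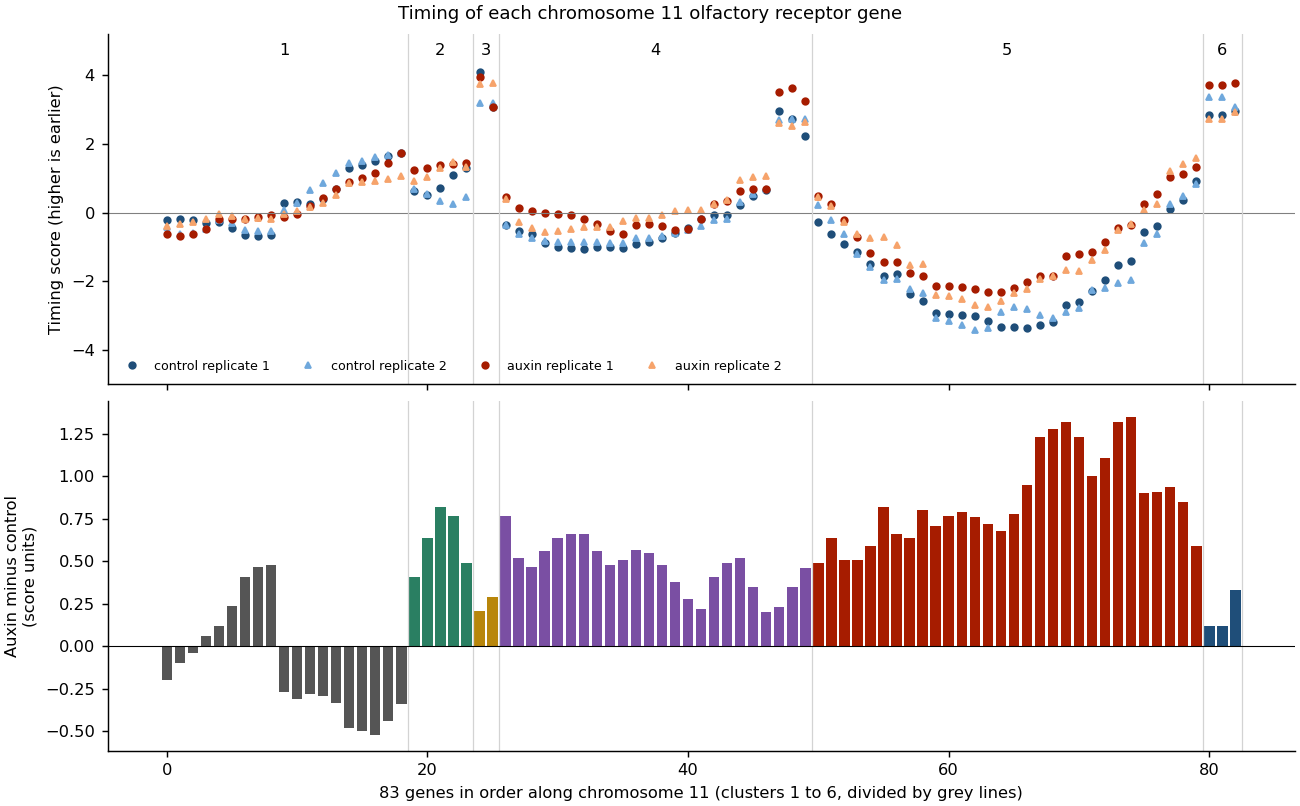
Top, timing score (y axis, higher is earlier) of each of the 83 receptor genes in each of the 4 profiles, in order along chromosome 11 (x axis), with clusters 1 to 6 divided by grey lines; bottom, auxin mean minus control mean of each gene. All 30 genes of cluster 5 have bars between 0.49 and 1.35, and the 13 bars below 0 all belong to cluster 1.

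With auxin, 70 of the 83 members scored higher and 13 lower, and 49.9% of all genes scored higher. The 2 auxin scores were both above the 2 control scores (groups apart) in 60 members, and both below in 9, against 23.9% and 25.9% of all genes. The difference was 0.5 or more in 43 members and 1 or more in 8, against 10.3% and 0.716% of all genes. These shares come from the contrast by which the genes were chosen. No gene passed limma at an adjusted p under 0.05 over all 21078 genes (0.0% called), no member among them, and 44 members and 17.1% of all genes had p under 0.05 before adjustment. The trended, robust fit called 1119 genes, 14 members among them, all earlier: 12 in the fifth cluster, Olfr51 in the second (adjusted p = 0.0274) and Olfr30 in the fourth (adjusted p = 0.0239), where 2.01% of all genes were called earlier and 3.30% later.

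The fifth cluster holds 30 receptors over 1014.8 kb (chr11:73350859-74365609), and all 30 replicated earlier in both auxin profiles than in both control profiles. The mean over its members was -1.89 and -1.90 in the control profiles and -1.01 and -1.06 in the auxin profiles. The groups did not overlap and the replicates of a group lay close together. The mean thus went from -1.89 ± 0.0034 to -1.03 ± 0.036, a difference of 0.86, and the median member difference was 0.80. Of the 137 windows present between the first and last member (80.6% of the grid), all 137 had both auxin scores above both control scores. Their differences of group means were 0.29 to 1.43. Over all genes 23.9% were apart earlier, and the share over all windows was not computed. Neighbouring windows of the cluster are not independent, and it was chosen by this contrast, so the count only describes it. The gap between replicates in these windows had a median of 0.2 and a maximum of 0.59 in control, and a median of 0.23 and a maximum of 0.75 with auxin.

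The cluster is a valley of late replication between early flanks. Control score by member ran from -0.035 at Olfr20, the first gene, down to -3.26 at Olfr393, and up to 0.87 at Olfr412, the last. The lowest window was at -3.37 (near Olfr23) and -3.47 (near Olfr393) in the control profiles, and at -2.34 (near Olfr394) and -2.79 (near Olfr393) with auxin. The valley was shallower in both auxin profiles, and its floor stayed within the same group of neighbouring genes.

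The late stretch was also narrower with auxin. The width below a score of -2 was 588 and 643 kb in the control profiles and 225 and 288 kb in the auxin profiles. Below -1 it was 831 and 848 kb against 698 and 644 kb, and below 0 it was 992 and 959 kb against 867 and 878 kb. At each of these 3 levels the groups did not overlap. In all 137 windows both auxin scores were above both control scores. The shallower floor and these widths follow from that and are no separate result. At a score of 1, on the shoulders, the widths were 1105 and 1112 kb against 1087 and 1036 kb, and again both auxin widths were below both control widths, though by less.

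**Figure D2:**
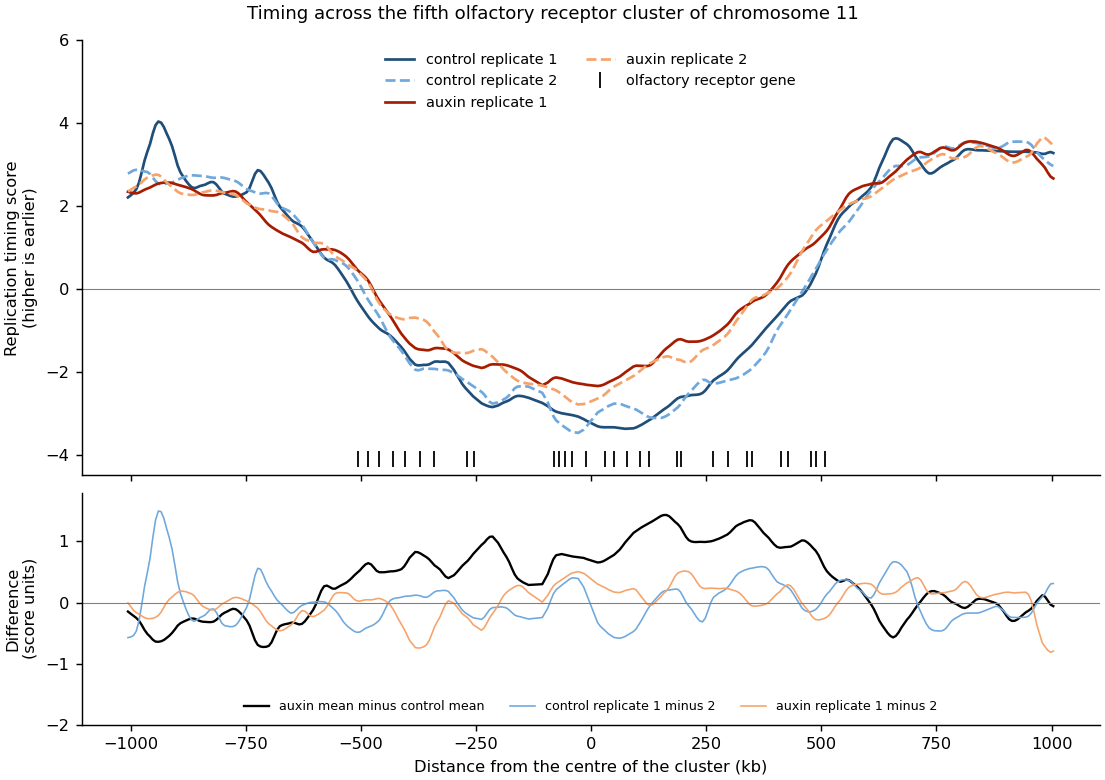
Top, timing score (y axis, higher is earlier) against distance from the centre of the fifth cluster in kb (x axis) in the 4 profiles, with ticks at the 30 receptor genes; bottom, the auxin minus control difference (black) and the difference between replicates of each group (coloured). Both auxin profiles lie above both control profiles from the first to the last gene, and the black line reaches 1.43.

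By subfamily, as listed among RefSeq synonyms, 18 neighbouring genes of MOR135 fill the first part of the cluster (chr11:73350859-73965557). Their mean score was -2.25 in control and -1.53 with auxin, a difference of 0.73. At the left edge Olfr20 scored -0.28 and 0.21 in control and 0.47 and 0.44 with auxin, 0.49 higher, the smallest difference of the cluster. Its control replicates differed by as much as the groups did, although both lay below both auxin scores.

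The MOR135 genes next to it had like differences: 0.64 at Olfr376, 0.51 at Olfr1, 0.51 at Olfr378, 0.59 at Olfr380, 0.82 at Olfr381 and 0.66 at Olfr382. Then came Olfr385 at 0.64 and Olfr384 at 0.80, already below -2 in control. A gap of 0.17 Mb, the widest within the cluster, parts Olfr384 from Olfr389 and holds Zfp735, a zinc finger gene.

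The next MOR135 genes make the floor of the valley. Olfr393, the latest of all 83 members, scored -3.16 and -3.36 in control and -2.31 and -2.77 with auxin, 0.72 higher. The groups were apart, and its auxin scores remained later than those of most other members. Around it Olfr389 differed by 0.71, Olfr390 by 0.77, Olfr391 by 0.79, Olfr392 by 0.76, Olfr394 by 0.68 and Olfr395 by 0.78. The last MOR135 genes differed more, Olfr23 by 0.95 and Olfr397 by 1.23, the latter read from a window 2444 bp away.

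The 8 members with a difference of 1 or more follow on each other from Olfr397 to Olfr43. Olfr398, the only MOR157 gene of the cluster, scored -3.19 and -3.07 in control and -1.86 and -1.84 with auxin, 1.28 higher. Olfr139, of MOR255, scored -2.69 and -2.91 in control and -1.27 and -1.69 with auxin, 1.32 higher. In both genes the difference between groups was well above the gap between replicates. Olfr399 differed by 1.23, Olfr401 by 1.00 and Olfr402 by 1.11, all 3 of MOR255.

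Olfr43 and Olfr403 are the 2 MOR125 genes. Olfr43 scored -1.41 and -1.97 in control and -0.36 and -0.33 with auxin, 1.35 higher, the largest difference among the 83 members. Olfr403 went from -1.80 to -0.48, a difference of 1.32. The control replicates of Olfr43 differed by 0.56, more than its auxin replicates, and the groups were apart by more than that.

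Towards the right edge the differences declined again. The MOR133 genes Olfr406 and Olfr59 differed by 0.90 and 0.91, and Olfr410 and Olfr411, of MOR255, by 0.94 and 0.85. Olfr412, of MOR127, scored 0.91 and 0.84 in control and 1.33 and 1.59 with auxin, 0.59 higher. It was the earliest gene of the cluster in every profile. The 6 MOR255 genes together went from -1.54 to -0.47, a difference of 1.08, but subfamily and position along the valley cannot be told apart here.

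The difference was not even along the valley, with a peak of 1.43 at chr11:74016001-74022000, near Olfr139, and others of 1.35 at chr11:74202001-74208000, near Olfr43, and 1.08 at chr11:73644001-73650000, between Olfr384 and Zfp735. Runs were counted over the windows present and pass over grid windows without a score. The longest run at 0.5 or more covered 606 kb (chr11:73770001-74376000), with 80 windows and 21 members. Shorter runs of 42, 120 and 114 kb at this level lay to its left. The difference was 1 or more over 126 kb (chr11:73950001-74076000) and 132 kb (chr11:74118001-74250000), and over shorter runs of 18 and 12 kb. The 2 highest peaks thus lay to the right of the floor, and the deepest control windows were not those with the largest difference.

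The authors' deposited table of late-to-early regions, which lists 22 regions with 4 on this chromosome, holds 1 region in this cluster (chr11:73872000-74052000). The authors' deposited table gives it scores of -3.12 and -2.94 in control and -1.82 and -2.03 with auxin, with a difference of 1.1. The listed end is the start of the last of its 23 windows, whose means equal these scores, so the region reaches 74058000. To that end it touches 7 members: Olfr394, Olfr395, Olfr23, Olfr397, Olfr398, Olfr139 and, through the last window alone, Olfr399. The authors' lists are labelled with a cutoff on the difference and with a second value whose meaning is not given, and the member means here have no cutoff. The extents are thus not like measures. Higher auxin scores were also found outside the region. Over the other 23 members the mean was -1.52 and -1.59 in control and -0.76 and -0.75 with auxin, 0.80 higher. Their groups were apart earlier in 23 of 23, against 23.9% of all genes. The 14 members before the region went from -2.01 to -1.34, a difference of 0.67, and the 9 after it from -0.85 to 0.15, a difference of 1.0. Among these 9, Olfr401, Olfr402, Olfr403 and Olfr43 differed by 1.00, 1.11, 1.32 and 1.35, while Olfr394 in the region differed by 0.68. The size of the difference alone thus does not part the members in the region from those outside. The authors' deposited table of early-to-late regions lists 63, with 1 on this chromosome and none over a cluster.

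In 50-kb bins, limma called 6 of the 21 bins over the cluster earlier and none later, where 0.637% of 42710 bins were called earlier. The bins lie over the contrast by which the cluster was chosen, so the calls only describe where the difference was largest. The 6 bins adjoin each other (chr11:73950001-74250000), with differences of 1.25, 1.38, 1.06, 1.03, 1.23 and 1.22. The remaining bins had differences down to 0.33 and did not pass. With one profile left out, fewer bins or none passed, both here and over the whole genome. Such a fit has 1 profile in a group, and the loss was not particular to this cluster. With the replicate number as a block 10 bins were called, against 2.50% of all bins, and with a trended, robust variance 11, against 5.17%.

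The advance ended near the edges of the gene cluster. The difference was at or above 0 in every window present over a run of 1200 kb (chr11:73266001-74466000), from 85 kb before Olfr20 to 100 kb after Olfr412. In the 126 windows outside that run but within 500 kb of the cluster, differences lay between -0.73 and 0.19, with a median of -0.27. The 500-kb flanks together stood at 2.48 ± 0.034 in control and 2.34 ± 0.0046 with auxin, a difference of -0.14, which was -0.26 on the left side and -0.014 on the right.

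Genes of other families in and beside the cluster were read the same way. Spata22, a meiotic recombination gene just left of Olfr20, scored 0.017 and 0.44 in control and 0.67 and 0.56 with auxin, 0.38 higher. Rap1gap2, which encodes a GTPase-activating protein for Rap1, lies just right of Olfr412 and scored 2.69 and 2.47 against 2.67 and 2.46, with overlapping groups. Inside, the zinc finger genes Zfp735 and Zfp616 went from -2.49 to -2.07 and from -2.55 to -1.50, differences of 0.42 and 1.05. The higher auxin score was therefore also found at the 2 non-receptor genes within the valley.

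The fourth cluster, 24 genes over 1159.3 kb (chr11:58454915-59614225), showed a smaller difference. Its member mean was -0.13 and -0.087 in control and 0.40 and 0.33 with auxin, 0.47 higher. All 24 members scored higher, against 49.9% of all genes. The groups were apart earlier in 20, all but Olfr317 and the 3 genes at the right end, against 23.9% of all genes. A gap of 0.73 Mb, the largest below the 1 Mb limit, parts the first 21 genes from these last 3.

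The first 21 genes of this cluster went from -0.51 ± 0.03 to -0.02 ± 0.031, a difference of 0.49. Olfr30, the first, scored -0.36 and -0.35 in control and 0.45 and 0.39 with auxin, 0.77 higher, the largest difference of the cluster. The last 3, Olfr222, Olfr223 and Olfr225, lie in early DNA and went from 2.68 ± 0.055 to 3.03 ± 0.62, a difference within the spread of the auxin replicates. Olfr225, the last gene, scored 2.23 and 2.74 in control and 3.26 and 2.64 with auxin, and its groups overlapped.

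Other genes lie among those of the fourth cluster, 28 of them with a value, and they did not share one direction. Their differences ran from -0.47 to 0.56 with a median of 0.01. Of the 28, 11 were apart earlier and 3 apart later, against 23.9% and 25.9% of all genes. Those that lie between the first 21 receptors, 2210407C18Rik, Trim58 and Fam183b, moved with them: they were 0.46, 0.56 and 0.53 higher, each with the groups apart. The rest lie in the 0.73 Mb gap, with control scores of 0.82 to 3.45, so the median of 0.01 mostly describes that gap. Lypd9, which encodes a Ly6 family protein and lies just left of Olfr30, went from -0.31 to 0.46, a difference of 0.77. Centring every profile on the chromosome 11 median lowered the difference of the fourth cluster to 0.36 and that of the fifth to 0.75, since this chromosome as a whole scored slightly higher with auxin.

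The second cluster is 5 genes over 80.0 kb (chr11:50969020-51049050). Its member mean was 0.86 and 0.45 in control and 1.35 and 1.21 with auxin, 0.63 higher. The groups were apart earlier in 5 of 5, against 23.9% of all genes. Olfr51 had the largest difference, with 0.72 and 0.33 in control against 1.39 and 1.3 with auxin, 0.82 higher. The control replicates of the cluster differed by more than its auxin replicates did, and leaving out one profile moved its difference between 0.43 and 0.83. At its ends Olfr1378 differed by 0.41 and Olfr1375 by 0.49. Zfp354a, a zinc finger gene on its right, differed by 0.46 with the groups apart.

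The first cluster, 19 genes over 452.1 kb (chr11:49112777-49564858), differed in sign along its length. Its member mean was 0.31 and 0.36 in control and 0.22 and 0.20 with auxin, a difference of -0.12. The first 9 genes went from -0.44 ± 0.047 to -0.28 ± 0.1, 0.16 higher, with 5 apart earlier. The 10 genes from Olfr1389 on went from 1.03 ± 0.11 to 0.65 ± 0.12, a difference of -0.38, with 9 apart later and none apart earlier. Over all genes 23.9% were apart earlier and 25.9% later. The division falls where the member difference turns from 0.48 at Olfr1390 to -0.27 at Olfr1389, so the counts on each side only describe it. In the first part Olfr1396, Olfr56 and Olfr1395 differed by -0.20, -0.10 and -0.036. Of the genes of other families inside the cluster, Btnl9, Zfp62 and Mgat1 differed by -0.002, -0.29 and -0.11, with the groups apart in Zfp62 alone.

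Among the genes of the first cluster, Olfr1390 had the largest positive difference, with -0.67 and -0.54 in control against -0.076 and -0.18 with auxin, 0.48 higher. Olfr1382 had the largest negative one, with 1.51 and 1.62 in control against 1.15 and 0.92 with auxin, a difference of -0.52. In both genes the groups were apart. Both are among the 14 genes of the cluster that belong to subfamily MOR256. Olfr1396, the first gene, differed by -0.20 with overlapping groups, and Olfr1380, the last, by -0.34. Ifi47, an interferon-inducible GTPase gene on the left, and 1700024J04Rik on the right differed by -0.24 and -0.27.

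The third and sixth clusters, both early, did not differ beyond their replicates. The third, Olfr1373 and Olfr1371, had a mean of 3.58 and 3.19 in control and 3.51 and 3.77 with auxin. The sixth, 3 genes of subfamily MOR240, had 2.88 and 3.27 in control and 3.74 and 2.80 with auxin. In both clusters the groups overlapped at every gene. Olfr462 and Olfr463 share a window and so 1 value, 0.12 higher with auxin, and Olfr464 differed by 0.33. Their flanking genes Ppp2ca and Skp1, a phosphatase subunit and a ubiquitin ligase subunit, differed by -0.012 and 0.22, and Epx and Dynll2, a peroxidase and a dynein light chain, by 0.26 and -0.08.

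**Figure D3:**
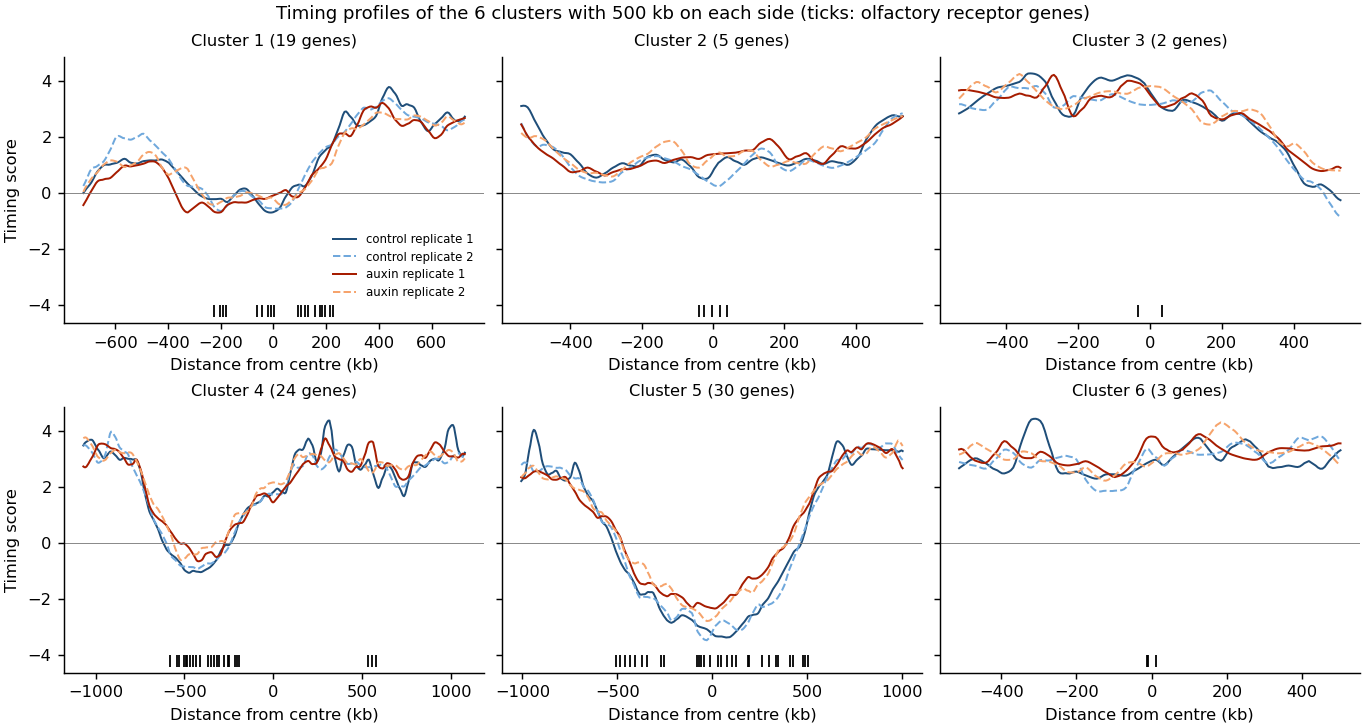
Timing score (y axis, higher is earlier) against distance from the centre of each cluster in kb (x axis) in the 4 profiles, with 500 kb on each side and ticks at receptor genes. Cluster 5 is the deepest valley, at a mean of -1.94 in control between flanks at 2.48, and clusters 3 and 6 lie in early DNA.

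How far each cluster stood from its surroundings was compared within each profile, as the mean window score inside minus that of the 500 kb on both sides. The fifth cluster lay below its flanks by the most: the differences were -4.45 and -4.40 in control and -3.41 and -3.44 with auxin. The depth was thus smaller with auxin in both profiles, and the replicates of a group differed by little. The smaller depth mostly restates the contrast by which the cluster was chosen: scores inside differed by 0.85 and those of the flanks by -0.14. The first cluster lay below its flanks by a mean over the 4 profiles of -1.74, the fourth by -1.08 and the second by -0.41, each below in 4 of 4 profiles. For the second cluster the mean joins unlike groups: -0.57 and -0.79 in control, and -0.04 and -0.25 with auxin, where it was nearer the level of its flanks. The third lay above its flanks, by 0.77, in 4 of 4. For each of these 5 clusters the exact sign-flip permutation test over 4 profiles, two-sided, gave p = 0.125, the smallest it can give, so this design cannot pass 0.05. The sixth cluster had a mean of 0.15, with 2 profiles on each side of 0 (p = 0.625, same exact test). The order of the shallower clusters depended on the width of the flanks: with 1 Mb on each side clusters 1, 2 and 4 lay at -1.07, -1.25 and -1.2 and cluster 3 at 1.55, and with 200 kb at -1.68, -0.27, -0.39 and 0.25. With 200 kb the exact p of clusters 2 and 3 was 0.25, and cluster 5 remained the deepest at either width, at -4.23 and -3.3.

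Across the genome, the same rule gave 49 olfactory receptor clusters on 17 chromosomes, 30 of them with 5 or more measured genes. By the auxin minus control difference of the 30, the fifth cluster of chromosome 11 came first at 0.86, the second cluster next at 0.63, and then a cluster of chromosome 7 at 0.60, one of chromosome 16 at 0.57 and the fourth cluster at 0.47. Among all 49, a pair of genes on chromosome 7 stood higher, at 0.94. Receptors on other chromosomes had a median difference of 0.074, with 27.2% apart earlier and 17.1% apart later, against 72.3% and 10.8% of the chromosome 11 receptors. The chromosome was chosen for this difference, so the ranks and shares are given as a description. The 8 clusters of this size with a control mean below -2 differed by between -0.31 and 0.22. Slightly later than the fifth cluster in control were clusters of chromosomes 16, 2 and 19, at -2.0, -1.95 and -1.94. They differed by 0.57, 0.4 and -0.012. All of these differences were below 0.86, and whether the difference goes with late timing was not tested.

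**Figure D4:**
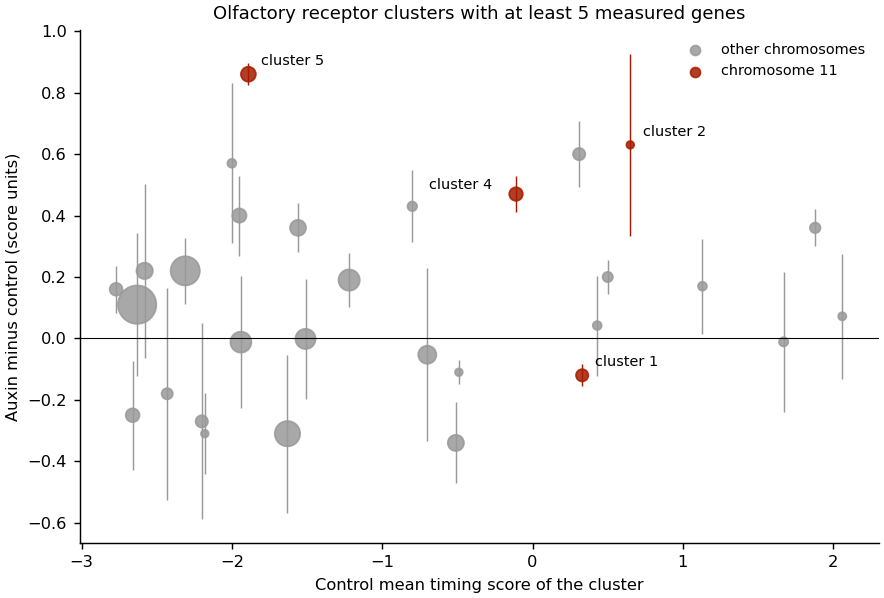
Auxin minus control difference (y axis, score units) against control mean timing score (x axis) for the 30 olfactory receptor clusters with 5 or more measured genes; point area grows with the number of genes and bars are the root of the summed squared SDs of the 2 groups. Cluster 5 of chromosome 11 is the highest point, at 0.86, and cluster 1 lies below 0, at -0.12.

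Genes that work with olfactory receptors, on several chromosomes, were read as 2 lists. Of 16 olfactory signalling genes, 16 were measured and none passed limma, with 3 at an unadjusted p under 0.05, of which 2 were earlier and 1 later, where 17.1% of all genes had such a p. The median difference was 0.064, with 4 apart earlier and 2 apart later, against 23.9% and 25.9% of all genes. Cnga2, a subunit of the olfactory cyclic nucleotide-gated channel, scored -3.23 and -3.16 in control and -2.05 and -2.49 with auxin, 0.93 higher. Slc24a4, a sodium, potassium and calcium exchanger, went from 0.53 to 1.17, a difference of 0.65. It was the 1 gene of the list that the trended, robust limma fit called (adjusted p = 0.0424), where 2.01% of all genes were called earlier. Cnga2 and Slc24a4 had the largest differences of the list.

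Of 20 regulators of receptor choice and neuronal identity, 20 were measured and none passed limma. An unadjusted p under 0.05 was found for 2, both later, where 17.1% of all genes had such a p. The median difference was 0.033, with 4 apart earlier and 6 apart later, near the shares over all genes. Dlx5, a homeodomain factor, scored -0.61 and -0.67 in control and -1.72 and -1.32 with auxin, a difference of -0.88. It was the 1 gene of this list that the trended, robust limma fit called (adjusted p = 0.0311), where 3.3% of all genes were called later. Kdm1a, a histone demethylase, and Cbx5, a heterochromatin protein, both differed by 0.52, and the groups of Kdm1a overlapped. Ebf1, which lies on chromosome 11 too, differed by -0.36.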

How the data were processed

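Repli-seq timing was measured in 2 control and 2 auxin profiles (8 libraries) of mouse embryonic stem cells. The authors deposited quantile-normalised timing scores in 316864 windows of a 6-kb grid on 20 chromosomes, and lists of regions with mean scores. Bowtie2, SAMtools, bedtools and mm10 were used per the submitters' processing notes, and the sources used here do not give their versions, their settings, the smoothing or the formula of the score. The depth of each profile is unknown, since no read counts were used.

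Windows were placed on RefSeq genes of GRCm38.p6, whose coordinates are those of mm10. A gene's value was the mean of the windows over its body, or the nearest within 50 kb (1063 of 21078 genes). Groups were compared by limma 3.58.1 (lmFit and eBayes, R 4.3.3) on scores per gene and per 50-kb bin with at least 3 windows, fitting treatment alone (2 residual degrees of freedom), with a Benjamini-Hochberg adjusted p under 0.05 over all genes or bins. Cluster means are over member genes. The fit was also run on simulated data with known shifts, and how often it called shifts of the size seen here is not reported. Tables were made with Python 3.11.15, pandas 2.3.3 and numpy 2.4.6.

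The members and the gene lists were chosen with earlier results of these data known. Named genes are every member of the fifth cluster, in other clusters the first, the last and those with the largest difference in each direction, the nearest gene of another family on each side (2 of these are not reported here), and 2 genes of each list; other names were chosen after their values were seen. Same-numbered profiles deviated together only weakly (correlation 0.105 over genes), and with 2 pairs the numbers were not taken as pairing. Alternatives were variance moderation, a replicate block, each profile left out, window, gene and bin definitions, gap and flank widths, and centring.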

Additional observations from a re-analysis of the deposited data

How the results depend on the processing

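Calls depended on the variance model and on single profiles. The count of genes called was 0, or 1119 with a trended, robust variance, and 0 to 1 when one profile was left out. The replicate block gave 0 genes but 2358 bins, against 707 bins without it. Bins called numbered 4626 with a trended, robust variance, 1 with all bins that hold at least 1 window, and 0 to 127 when one profile was left out. Leaving out windows with a score over 10 in size changed neither count. The causes were not tested.

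With the median over members taken in each profile in place of the mean (called the profile median), the difference of the fifth cluster was 0.93. It was 0.75 after centring on the chromosome 11 median and 0.84 to 0.89 when one profile was left out. Its control level was -1.94 over all windows, -2.17 as a profile median, -2.1 at transcription starts and -1.81 for members that overlap a window. For the fourth cluster the difference was 0.16 over all windows, which take in the 0.73 Mb without receptors, 0.57 as a profile median and 0.36 centred. Its control level was 1.46 over all windows, a change of sign, -0.6 as a profile median and -0.057 at starts. For the first cluster the difference was -0.085 over all windows, -0.22 as a profile median, -0.16 at starts and -0.23 centred, and its level was 0.11 over all windows, 0.16 as a profile median and 0.43 at starts. Joining genes over gaps up to 2 Mb merged the first 3 clusters at 0.05. Without auxin replicate 1 the sixth cluster changed sign, to -0.28, and its flank difference to -0.014.

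Leaving out one profile gave differences of -0.15 to -0.099 for the first cluster, 0.43 to 0.83 for the second, 0.055 to 0.44 for the third, 0.44 to 0.51 for the fourth and -0.28 to 0.67 for the sixth. The flank differences ranged from -4.1 to -3.75 for the fifth cluster and from -0.014 to 0.29 for the sixth. The unknown depth and the single window behind most members limit what small differences can show.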
